A study of Mus musculus with 9 samples.

Results

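The Hox genes of the mouse epididymis were described along the axis of the duct. Members were all genes of the table whose symbol was Hox followed by a letter from a to d and a paralog number, with nothing after it. The rule used no measured value. It found 36 of the 32195 genes in the table, of which 11 were in cluster A, 9 in cluster B, 9 in cluster C and 7 in cluster D. Of the 36 members, 16 had at least 1000 unique molecular identifiers (UMIs, each one captured mRNA molecule) in the cells kept, 10 had from 100 to 999 and 10 had fewer than 100.

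Hox genes encode homeodomain transcription factors that give cells their position along the head-to-tail axis of the embryo. They lie in clusters named A to D, and the paralog number is the place of a gene within its cluster, low numbers acting toward the head and high numbers, the posterior groups, toward the tail. The epididymal epithelium forms from the Wolffian duct, and the stroma from the mesenchyme around it. Posterior cluster A genes such as Hoxa10 and Hoxa11 are known for setting regional identity in the male reproductive tract.

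Single-cell RNA-seq on microfluidic chips (Singleron GEXSCOPE) was carried out on the caput, corpus and cauda, the head, body and tail of the epididymis, of untreated C57BL/6 mice (C57BL/6J in the study's methods). One age was 42 days (P42), with 1 library per segment, and the other was 56 days (P56), with 2 libraries per segment, giving 9 libraries. Each library was a pool of several mice, and the 3 segments of a pool came from the same mice, so that a replicate is a pool. The p-values between segments measure the spread between pools. Those that compare cell classes measure the spread between the 9 libraries, which come from 3 pools. Those between ages measure the spread between the P56 replicates. With 1 pool, P42 had no replicate, and age cannot be told apart from that pool.

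The libraries held 23114756 to 50655384 UMIs over all barcodes, and 41362 cells were used. Cells were gated on fixed marker lists that held no Hox gene: 18513 principal, 2585 basal, 4678 clear/narrow, 3858 stromal (fibroblast or smooth-muscle-like myoid), 1403 macrophage/monocyte and 467 endothelial cells. The gate set the level of a class's own markers, so these are no separate check of the names. Principal-cell markers were found in every class, reaching 510 to 1223 UMIs per 10000 in stromal and 750 to 1391 in macrophage-gated cells of the caput, although neither class is epithelial. Macrophage-gated cells were used as the reference for free RNA, and a level at or below theirs was not read as expression. The P42 cauda library stood apart: 2365 of its 4536 cells were stromal and 224 were principal, against 68 to 190 stromal cells in the P56 cauda libraries. Fibroblast markers were high over that whole library, at a median of 295 UMIs per 10000 in its cells, above the gate's limit of 150, against 1.60 to 22.3 in the other 8 libraries. The part of free RNA of these markers in the number of its stromal-gated cells was not tested. The makeup of the stroma differed too, with fibroblast-gated cells at 17 to 180 per caput library beside 25 to 100 myoid-gated ones, and at 41 to 2281 beside 22 to 56 in the cauda. Between any pair of libraries, 2 to 35 cell barcodes were shared.

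Levels are given as CPM, the UMIs of a gene per 1000000 UMIs of the class in that library, always in the order P42, P56 pool 1, P56 pool 2. A member was called between segments at a Benjamini-Hochberg adjusted p under 0.05 over all genes tested (edgeR quasi-likelihood test with the pool as a block) and a difference of at least 1 log2 unit between the highest and the lowest segment. Differences are log2 values ± standard error. They were fitted within each gene. Shares of the Hox UMIs by cluster or paralog number sum UMIs over genes and were not corrected for gene length.

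The 4 clusters made up different parts of the Hox RNA in epithelium and stroma. In principal cells, cluster B held 78.6% to 87.0% of all Hox UMIs in the 9 libraries, cluster D 11.1% to 19.2%, cluster A 0.976% to 3.41% and cluster C 0.318% to 1.59%. In stromal cells, the share of cluster C was from 19.9% to 41.9% (caput), from 29.3% to 49.0% (corpus) and from 3.15% to 20.3% (cauda), and cluster A held 9.91% to 37.4% over all libraries. The sum over all members was highest in the caput in both classes. It was 1014 to 1099 CPM in principal cells of the caput against 380 to 653 in the other segments, and 1088 to 1244 in stromal cells of the caput against 425 to 651. In macrophages the same sum was 662 to 1007 against 148 to 472, and cluster B, whose genes were not read as stromal expression where at or below the macrophage level, held 33.9% to 59.2% of the stromal sum in the caput.

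**Figure D1:**
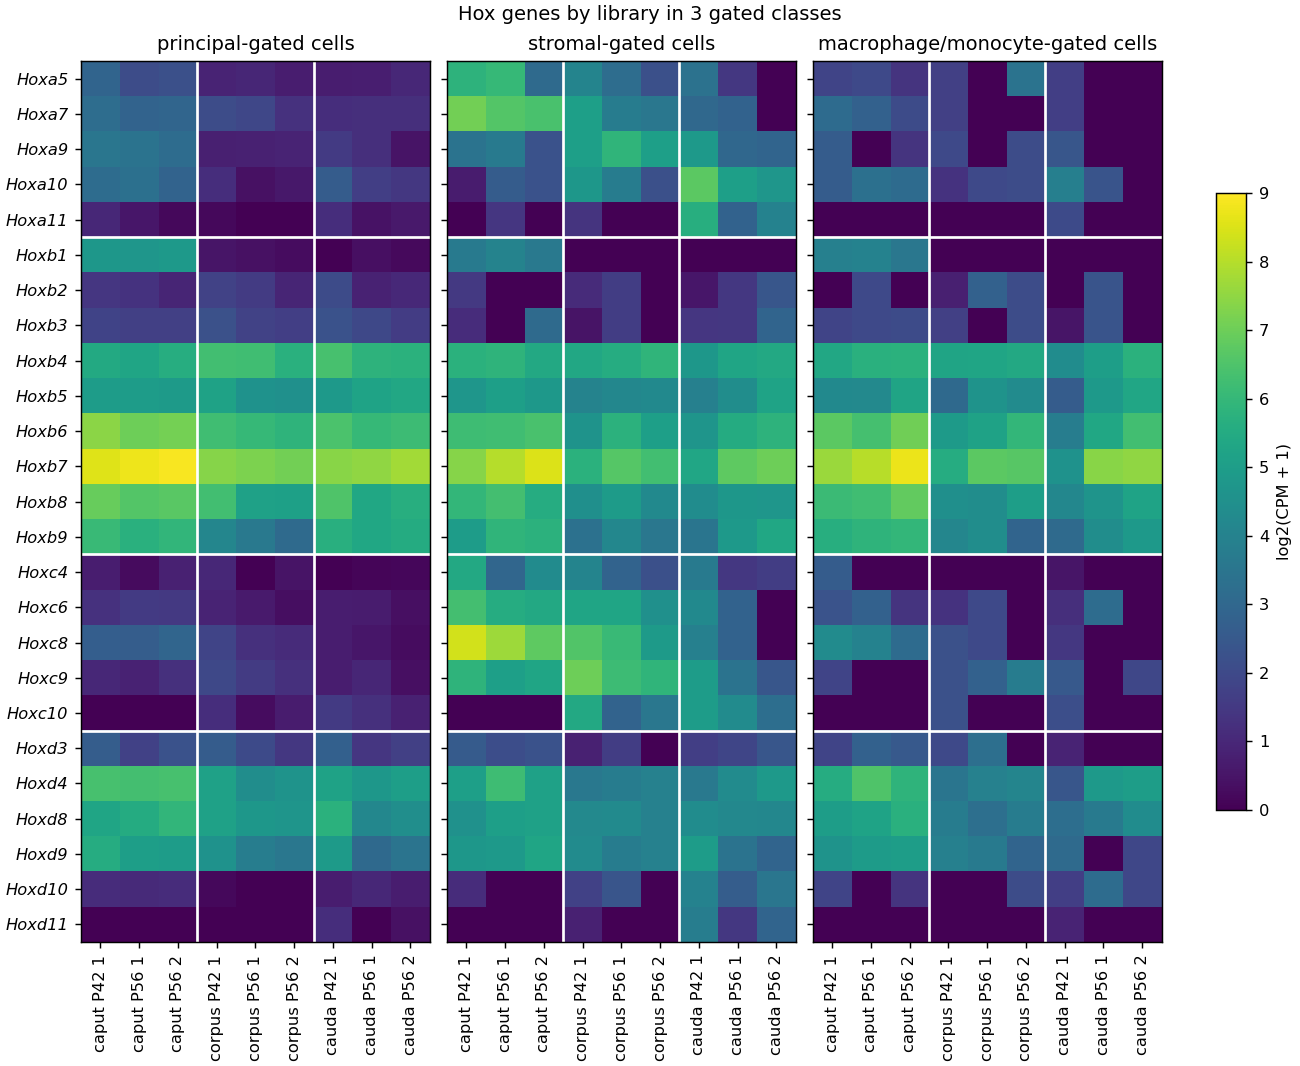
Level of the members with at least 100 UMIs in principal and stromal cells together, as log2(CPM + 1), in principal-, stromal- and macrophage-gated cells. Rows are genes in cluster order and columns the 9 libraries by segment. Hoxb4 to Hoxb9, Hoxd4 and Hoxd8 have UMIs in every library of all 3 classes, Hoxa7, Hoxc6 and Hoxc8 are highest in stromal cells of the caput, and Hoxa10, Hoxa11, Hoxd10 and Hoxd11 have their highest values in stromal cells of the cauda.

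Stromal cells changed their Hox genes from segment to segment. In these cells 12 of 16 members tested were called between segments, where 13.1% of all genes tested were. Of the 12, 8 were highest in the caput (6.17% of all genes), 2 in the corpus (2.97%) and 2 in the cauda (3.95%). Of these, 7 were genes of clusters A and C, and stood above the macrophage level in all libraries with UMIs except 1 for Hoxc6 and the 3 of the caput for Hoxa10. The other 5, from clusters B and D, were near that level and are given last.

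Hoxc8, Hoxa7 and Hoxc6 were highest in the caput. Hoxc8, a patterning gene of the thoracic skeleton, had 334, 207 and 108 CPM in the caput, 93.2, 67.2 and 29.0 in the corpus and 14.0, 6.16 and 0 in the cauda. It fell by 1.72 ± 0.27 log2 units from caput to corpus and by 4.64 ± 0.32 from caput to cauda (adjusted p = 1.88e-06). The 3 segments did not overlap. Hoxa7, a neighbour of Hoxa9 in its cluster that also patterns the trunk, had 135, 95.6 and 84.9 CPM in the caput, 32.5, 12.6 and 10.9 in the corpus and 7.21, 6.16 and 0 in the cauda, again without overlap between segments. Its cauda level was -4.20 ± 0.39 relative to the caput (adjusted p = 1.91e-05). Hoxc6, which acts in motor neurons and the thorax, had 79.0, 46.1 and 42.4 CPM in the caput, 38.3, 37.8 and 21.7 in the corpus and 18.3, 6.16 and 0 in the cauda (adjusted p = 0.0054). Every caput library was above every corpus and cauda library, and every corpus library was above every cauda library.

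Hoxa5, needed for lung and upper trunk development, did not pass the low-count filter of this fit and was not tested. It had 54.9, 64.9 and 7.71 CPM in the caput, 15.9, 8.40 and 3.62 in the corpus and 9.42, 1.76 and 0 in the cauda, so that 2 caput libraries were high and the third lay within the range of the corpus. Hoxc4 and Hoxc5, their cluster's most anterior genes, were not tested either, with 6.83 to 42.0 CPM for Hoxc4 in the caput against 1.76 to 11.9 in the cauda, and 3.41 to 9.87 against 0 to 2.55 for Hoxc5. Hoxc4 overlapped between those segments and Hoxc5 did not.

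Hoxc9 and Hoxa9 were highest in the corpus. Hoxc9 had 56.8, 32.4 and 38.6 CPM in the caput, 127, 71.4 and 57.9 in the corpus and 30.4, 9.69 and 4.25 in the cauda. All 3 corpus libraries were above all others, by 1.12 ± 0.31 relative to the caput, and the cauda was below the corpus by 2.32 ± 0.31 (adjusted p = 0.000617). In myoid-gated cells alone, given below, the P56 corpus libraries were below those of the caput. Hoxa9, a posterior gene that also acts in blood progenitors, had 9.87, 11.9 and 3.86 CPM in the caput, 32.5, 58.8 and 32.6 in the corpus and 27.9, 7.04 and 6.38 in the cauda. Its corpus libraries were again the 3 highest, 2.24 ± 0.55 above the caput (adjusted p = 0.034). This call was lost without either P56 pool (adjusted p = 0.113 and 0.0802), where the difference between segments was 2.17 and 2.08 log2 units against 2.24 with all pools. It was also lost with fibroblast-gated cells only (adjusted p = 0.0978), at 2.21 log2 units.

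Hoxa10 was highest in the cauda, and Hoxc10 was counted in the corpus and cauda. Hoxa10, known for uterine and male-tract patterning, had 0.617, 5.12 and 3.86 CPM in the caput, 25.9, 12.6 and 3.62 in the corpus and 105, 32.6 and 25.5 in the cauda. The 3 cauda libraries were 5.13 ± 0.68 above the caput (adjusted p = 0.00041), without overlap. In the caput it had 1, 0 and 0 UMIs in fibroblast-gated and 0, 3 and 1 in myoid-gated cells. The size of this difference thus rests on few UMIs. The corpus overlapped both, since its highest library was just above the lowest of the cauda and its lowest library was within the range of the caput. In the caput its stromal level was below that of macrophages in all 3 libraries and was not read as expression. Hoxc10, a gene of the lumbar region and hindlimb, had 0, 0 and 0 CPM in the caput, 41.8, 6.30 and 10.9 in the corpus and 30.6, 19.4 and 8.51 in the cauda (adjusted p = 0.00191). No UMI of it was counted in stromal cells of the caput, and the corpus was at least 28.1-fold higher, with 3 UMIs over the caput libraries as the floor. Of the 114 UMIs in the corpus, 108 were in the P42 library, without which the corpus was at least 6.55-fold higher, and without the P42 caput library, at least 9.62-fold. Such bounds without 1 library were added after the data were seen. Corpus and cauda overlapped.

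Hoxa11, which patterns the forearm and the reproductive tract, was not tested in this fit and had 0, 1.71 and 0 CPM in the caput, 1.55, 0 and 0 in the corpus and 48.7, 6.16 and 14.9 in the cauda. Each cauda library was above all others. Its antisense partner Hoxa11os overlaps it, and how strand was set in counting is not given in the sources used here. Hoxd10 had 1.23, 0 and 0 CPM in the caput, 2.32, 4.20 and 0 in the corpus and 15.0, 5.28 and 10.6 in the cauda, and Hoxd11, a neighbour that also patterns the limb, had 0, 0 and 0 CPM in the caput, 0.774, 0 and 0 in the corpus and 13.2, 1.76 and 6.38 in the cauda. For both, the 3 cauda libraries were the highest, though they rested on 2 to 135 UMIs each. Over the pooled libraries Hoxd11 was at least 9.59-fold higher in the cauda than in the caput, but at least 2.56-fold without the P42 cauda library, which held 119 of its 124 UMIs there, and at least 3.29-fold without the P42 caput library.

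**Figure D2:**
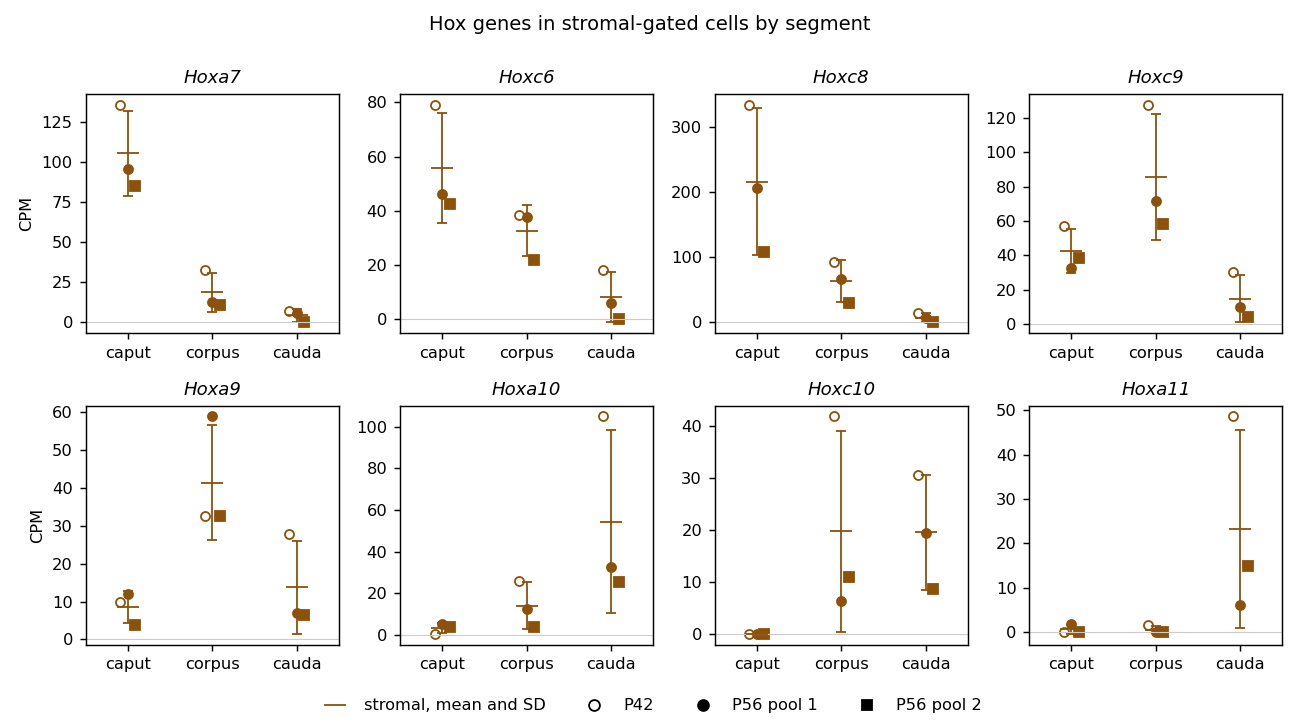
CPM of 8 members of clusters A and C in stromal-gated cells by segment. Points are libraries (open circle P42, filled circle and square the P56 pools), bars the mean and SD over the 3 libraries. Hoxa7, Hoxc6 and Hoxc8 are highest in the caput, Hoxc9 and Hoxa9 in the corpus, and Hoxa10 and Hoxa11 in the cauda, where the P42 library is the highest point for both.

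Weighted by UMIs, the mean paralog number of the cluster A and C genes in stromal cells lay between 7.06 and 7.23 in the caput, between 7.87 and 8.11 in the corpus and between 9.08 and 9.86 in the cauda. Groups 9 and above made up between 9.16% and 14.0% of these UMIs in caput libraries, between 52.2% and 55.8% in corpus libraries and between 77.2% and 96.6% in cauda libraries. Neither measure overlapped between segments. In principal cells the same mean was 7.81 to 8.11, 7.39 to 7.59 and 7.99 to 9.14, so that there the corpus was lowest and the caput overlapped the cauda. These means rested on 111 to 171 UMIs per corpus library, and the 9.14 of the P42 cauda library on 22. They include Hoxa10, Hoxc6, Hoxc8 and Hoxc10, which were not read as principal-cell expression, as given below. They are thus no measure of an epithelial pattern.

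Fibroblast-gated and myoid-gated cells were also summed apart. In fibroblast-gated cells Hoxc8 had 309, 287 and 153 CPM in the caput, 90.8, 78.6 and 30.8 in the corpus and 13.9, 8.59 and 0 in the cauda, and Hoxa10 had 1.02, 0 and 0 CPM in the caput, 25.9, 16.3 and 5.14 in the corpus and 101, 44.4 and 25.2 in the cauda. In myoid-gated cells the same genes had 348, 170 and 83.3 CPM in the caput, 108, 28.0 and 24.5 in the corpus and 0, 2.55 and 0 in the cauda for Hoxc8, and 0, 7.27 and 5.95 CPM in the caput, 25.0, 0 and 0 in the corpus and 209, 7.65 and 25.9 in the cauda for Hoxa10. In both groups every cauda library was below every caput library for Hoxc8 and above every caput library for Hoxa10, though myoid values in the corpus and cauda rested on 15 to 56 cells per library. For Hoxc9 the groups differed. Fibroblast-gated cells had 59.1, 17.6 and 11.0 in the caput and 128, 86.8 and 72.0 in the corpus. Myoid-gated cells had 46.8, 38.8 and 53.6 in the caput and 117, 18.7 and 24.5 in the corpus. The P56 values rested on 3 and 1 UMIs in caput fibroblast-gated cells and on 2 each in corpus myoid-gated cells. With fibroblast-gated cells only, 5 members were called. Without the P42 cauda library 14 were, both alternatives being chosen after the data were seen. The share of all genes called under these alternatives is not given here, so a changed count cannot be read as particular to Hox genes. Without the block for pools 5 were called, namely Hoxa7, Hoxa10, Hoxc8, Hoxc9 and Hoxc10.

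The 5 other stromal calls were Hoxb6, Hoxb7, Hoxb8, Hoxb9 and Hoxd4, all highest in the caput. Hoxb7, whose promoter is widely used to drive transgenes in the Wolffian duct, had 165, 254 and 370 CPM in the caput, 52.6, 98.7 and 76.0 in the corpus and 39.1, 107 and 128 in the cauda. Macrophage-gated cells had 199, 263 and 426 in the caput, 46.8, 106 and 99.7 in the corpus and 23.2, 169 and 180 in the cauda. The macrophage level was a median 1.15 times the stromal one for Hoxb7, 1.23 times for Hoxb6, 1.01 times for Hoxb8, 0.980 times for Hoxb9 and 1.16 times for Hoxd4, against 0.0473 for Hoxa7, 0.0510 for Hoxc8, 0.0457 for Hoxc9, 0.0914 for Hoxa9 and 0.233 for Hoxa10. These 5 were at or near the level of the free-RNA reference and were not read as stromal expression. Of them, Hoxb6, Hoxb8, Hoxb9 and Hoxd4 lost their call without P56 pool 1 (adjusted p = 0.11, 0.132, 0.202 and 0.396), and Hoxb6 also without P42 (0.222) or P56 pool 2 (0.107). The other 4 had, in the same cells, 72.8, 75.1 and 84.9 in the caput, 23.6, 54.6 and 32.6 in the corpus and 25.1, 45.8 and 55.3 in the cauda for Hoxb6. Hoxb8 had 61.1, 78.5 and 46.3 in the caput, 21.3, 29.4 and 18.1 in the corpus and 19.96, 26.4 and 25.5 in the cauda, Hoxb9 had 30.2, 58.0 and 54.0 in the caput, 9.29, 16.8 and 10.9 in the corpus and 10.4, 27.3 and 40.4 in the cauda, and Hoxd4 had 32.7, 73.4 and 34.7 in the caput, 11.2, 12.6 and 14.5 in the corpus and 11.4, 19.4 and 27.6 in the cauda.

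Members tested and not called in stromal cells were Hoxb4, Hoxb5, Hoxd8 and Hoxd9 (adjusted p from 0.518 to 0.61). Hoxb4 had 52.5, 56.3 and 42.4 CPM in the caput, 41.4, 46.2 and 57.9 in the corpus and 26.3, 37.9 and 42.5 in the cauda, and Hoxb5 had 25.3, 32.4 and 27.0 in the caput, 15.1, 16.8 and 18.1 in the corpus and 14.0, 20.2 and 36.2 in the cauda. Hoxd8 had 22.2, 32.4 and 34.7 in the caput, 17.8, 18.9 and 14.5 in the corpus and 19.8, 17.6 and 17.0 in the cauda, and Hoxd9 had 25.9, 27.3 and 38.6 in the caput, 19.4, 12.6 and 14.5 in the corpus and 30.7, 9.69 and 6.38 in the cauda. For Hoxd8 every caput library was above all others, and for Hoxb5 and Hoxd9 the caput overlapped the cauda but not the corpus, with fitted differences between segments of at most 0.82 log2 units for the 4. Hoxd3, untested here, had 4.94, 3.41 and 3.86 in the caput, 0.774, 2.10 and 0 in the corpus and 2.22, 2.64 and 4.25 in the cauda.

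Principal cells, the main secretory cells of the epithelium, had their highest Hox levels in the caput. Here 16 of 23 members tested were called, where 39.1% of all genes were. Of the 16, 14 were highest in the caput (16.3% of all genes), Hoxc9 in the corpus and Hoxc10 in the cauda.

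Hoxb1, which patterns the hindbrain in the embryo, had the lowest adjusted p. In principal cells it had 26.2, 25.3 and 27.6 CPM in the caput, 0.426, 0.337 and 0.215 in the corpus and 0, 0.299 and 0.162 in the cauda. The caput was far above the others without overlap, and the corpus differed from it by -6.33 ± 0.27 (adjusted p = 4.5e-08). Macrophage-gated cells of the caput had 14.3, 15.0 and 11.0 and those of the other segments 0. Principal cells were thus above the macrophage level in each caput library. T-cell-gated cells, another class outside the epithelium, had 0, 43.3 and 37.6 in the caput. The P56 values, from 6 and 8 UMIs in 18 and 31 cells, were above those of principal cells. The reading against free RNA thus depends on the class used as reference. Stromal cells of the caput had 11.7, 15.4 and 11.6, which is the macrophage level. Basal and clear/narrow cells of the caput had 13.0, 18.8 and 13.7 and 10.7, 11.6 and 13.7, near that level as well.

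The cluster B genes next to each other on chromosome 11 had unequal patterns. Hoxb7 had 374, 441 and 477 CPM in the caput, 163, 149 and 136 in the corpus and 168, 183 and 213 in the cauda in principal cells (adjusted p = 8.58e-05). Hoxb6, its neighbour, had 173, 128 and 139 in the caput, 74.8, 64.5 and 56.2 in the corpus and 87.5, 64.2 and 70.6 in the cauda (adjusted p = 0.00014). Hoxb8 had 119, 96.4 and 103 in the caput, 76.5, 34.1 and 33.7 in the corpus and 90.7, 40.3 and 49.1 in the cauda (adjusted p = 0.00065). For these 3 the caput was above both other segments, by 1.01 to 1.46 log2 units for Hoxb7. Hoxb9, the most posterior of the cluster's genes in the table, was low only in the corpus, with 67.2, 51.9 and 59.2 in the caput, 16.5, 11.5 and 7.71 in the corpus and 50.8, 40.5 and 44.9 in the cauda. The cauda differed from the caput by -0.19 ± 0.17 without overlap, and from the corpus by 2.13 ± 0.18 (adjusted p = 8.4e-06).

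Hoxb4, a gene also known from blood stem cells, went the other way, with 42.9, 38.4 and 47.6 CPM in the caput, 76.3, 74.3 and 51.7 in the corpus and 82.5, 55.1 and 52.8 in the cauda. It was 0.69 ± 0.16 higher in the corpus and 0.70 ± 0.16 higher in the cauda (adjusted p = 0.00668), under the 1 log2 unit needed for a call, and every caput library was below every other library. Hoxb5 had 30.1, 30.3 and 29.3 in the caput, 35.5, 23.1 and 21.7 in the corpus and 27.3, 36.5 and 40.7 in the cauda and was not called (adjusted p = 0.077).

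In cluster D, Hoxd4 had 81.5, 78.5 and 81.8 CPM in the caput, 34.4, 20.5 and 23.9 in the corpus and 35.5, 26.3 and 32.1 in the cauda (adjusted p = 2.54e-05), with every caput library above every other. Its exons overlap those of Hoxd3 on the same strand, so that their counts are uncertain. Hoxd3 had 5.30, 2.34 and 3.84 in the caput, 5.12, 3.09 and 1.78 in the corpus and 5.71, 1.70 and 2.23 in the cauda and overlapped between all segments (adjusted p = 0.707). Hoxd9, a limb and spinal gene of the posterior groups, had 46.9, 31.7 and 30.3 in the caput, 22.9, 13.0 and 10.8 in the corpus and 29.2, 7.48 and 9.93 in the cauda (adjusted p = 0.000289), the caput again on top. Hoxd8 had 38.5, 45.8 and 60.3 in the caput, 34.1, 26.4 and 24.9 in the corpus and 53.3, 17.2 and 20.8 in the cauda and was not called (adjusted p = 0.0577), and the P42 cauda library was within the range of the caput. Principal cells were above macrophages in 9 of 9 libraries for Hoxb7 and Hoxd8, in 8 of 9 for Hoxb8 and Hoxd9, in 7 of 9 for Hoxb5, Hoxb6 and Hoxd4, and in 6 of 9 for Hoxb4, Hoxb9 and Hoxd3. For Hoxb7, T-cell-gated cells of the caput had 342, 592 and 518, above principal cells in both P56 libraries but not at P42.

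Of clusters A and C, Hoxa5, Hoxa7, Hoxa9, Hoxa10, Hoxc6 and Hoxc8 were called and highest in the caput in principal cells, as was Hoxd10 of cluster D. Hoxa7 had 8.28, 6.33 and 6.63 CPM in the caput, 3.27, 2.75 and 1.46 in the corpus and 1.27, 1.30 and 1.34 in the cauda (adjusted p = 0.000137), and Hoxc8 had 5.52, 5.35 and 6.71 in the caput, 2.56, 1.35 and 1.13 in the corpus and 0.634, 0.449 and 0.243 in the cauda (adjusted p = 4.27e-05). Principal cells were above macrophages in 8 of 9 libraries for Hoxa7 and in 6 of 9 for Hoxa5 and Hoxa9, but in 3 of 9 for Hoxa10, Hoxc6 and Hoxc8, and in 2 of the 7 libraries with a UMI for Hoxd10. The last 4 were not read as principal-cell expression. Hoxc9 was called with its highest value in the corpus (adjusted p = 0.0487), at 0.994, 0.831 and 1.36 in the caput, 2.84, 1.97 and 1.40 in the corpus and 0.634, 0.948 and 0.284 in the cauda, but was above macrophages in 3 of 9 libraries, and the call was lost without any of the pools (adjusted p from 0.0758 to 0.119) or without the P42 cauda library (0.053). Hoxc6 lost its call without either P56 pool (0.104 and 0.12). Hoxc10 had no UMI in principal cells of the caput and was called with its highest value in the cauda (adjusted p = 0.00266), where it had 1.90, 1.40 and 0.770. Over the pooled cauda libraries it was at 1.08 CPM in principal cells and at 2.73 in macrophages, so that it was not read as principal-cell expression.

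**Figure D3:**
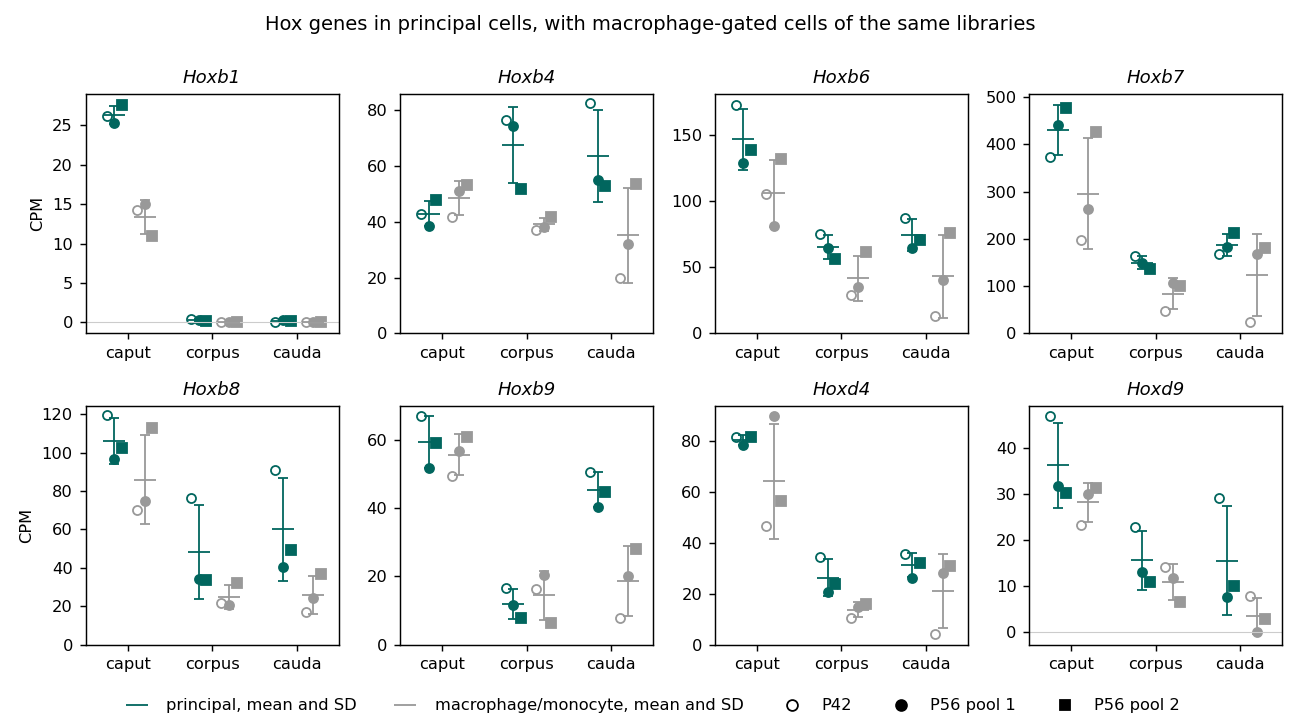
CPM of 8 members of clusters B and D in principal cells (green) and, as the reference for free RNA, in macrophage-gated cells (grey) of the same libraries, by segment. Points are libraries and bars the mean and SD over 3 libraries. Hoxb1 is near 0 outside the caput, Hoxb9 drops in the corpus, and the mean macrophage level is under the principal one in most panels and segments, though not for Hoxb4 in the caput or Hoxb9 in the corpus.

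In basal and clear/narrow cells, each member called was highest in the caput. In basal cells, which line the base of the epithelium, 6 of 15 members tested were called (14.9% of all genes), all 6 highest in the caput (6.02%): Hoxb1, Hoxd9, Hoxb7, Hoxd4, Hoxa7 and Hoxc8. In clear/narrow cells, the acid-secreting cells, 11 of 19 were called (15.6%), all 11 highest in the caput (7.1%): Hoxa5, Hoxa7, Hoxa9, Hoxa10, Hoxb1, Hoxb6, Hoxb7, Hoxc8, Hoxd3, Hoxd4 and Hoxd9. Hoxa7 had 12.8, 21.1 and 16.6 CPM in the caput, 4.67, 3.50 and 1.85 in the corpus and 1.66, 0.597 and 0.554 in the cauda in clear/narrow cells and 15.3, 10.6 and 13.4 in the caput, 3.97, 5.83 and 0 in the corpus and 6.38, 1.45 and 1.252 in the cauda in basal cells. It was above macrophages in 8 of 9 and in 8 of 8 libraries. Of the 12 members tested in all 4 classes, Hoxa7, Hoxb7, Hoxc8 and Hoxd4 were called in every class and were highest in the caput in each, as were 3.5% of the 6023 genes tested in all of these classes. Hoxb7 and Hoxd4 were above macrophages in 2 of 9 libraries in stromal cells, and Hoxc8 in 3 of 9 in principal and 3 of 8 in clear/narrow cells, and they were not read as expression there. In clear/narrow cells Hoxa10 was above macrophages in 4 of 9 libraries and Hoxb1 in 2 of the 4 with a UMI. Neither was read as expression in that class. Hoxb6 was above macrophages there in 5 of 9. Without the P42 cauda library, 9 members were called in basal and 9 in clear/narrow cells.

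Some of these calls were lost when a pool was left out, which leaves fewer libraries per segment. Hoxa7 in basal cells was lost without either P56 pool (adjusted p = 0.0568 and 0.0688), as was Hoxc8 (0.0688 and 0.158), while Hoxb7 (0.0583) and Hoxd4 (0.074) were lost without P56 pool 1. The difference between segments was then 2.44 and 2.26 log2 units for Hoxa7, against 2.55 with all pools, and 2.38 and 1.86 for Hoxc8, against 2.25. In clear/narrow cells, Hoxa9 and Hoxa10 were lost without either P56 pool (adjusted p from 0.0836 to 0.203), as was Hoxd3 (0.0945 and 0.415). Hoxa9 was then at 2.39 and 2.23 against 2.69, Hoxa10 at 2.22 and 2.43 against 2.64, and Hoxd3 at 1.69 and 0.87 against 1.27. Hoxd3 was also lost with DESeq2 (adjusted p = 0.117), without the block for pools (0.125), with a stricter gate (0.0881) and without the P42 cauda library (0.0604). Hoxb7 without that library and Hoxd4 without P56 pool 2 each fell to 0.97 log2 units between segments. With the stricter gate, Hoxb7 was at 0.94.

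The segment pattern itself differed between stromal and principal cells for 4 members. The interaction of class and segment, with the library as a block, was past an adjusted p of 0.05 for 4 of 26 members tested, Hoxa9, Hoxa10, Hoxa11 and Hoxd10, where 4.78% of all genes were. Hoxa10 had 8.17, 9.03 and 6.33 CPM in the caput, 1.28, 0.337 and 0.485 in the corpus and 5.08, 2.15 and 1.74 in the cauda in principal cells, with the caput highest, while its stromal levels, given above, were lowest there. Relative to the caput, the corpus was 6.39 ± 0.71 and the cauda 6.07 ± 0.60 log2 units higher in stromal than in principal cells (adjusted p = 1.97e-08). These sizes rest on the few stromal UMIs of the caput given above. Macrophages of the caput had 5.19, 8.98 and 7.83, from 3 to 5 UMIs each, so that its principal-cell level in the caput did not stand clear of free RNA.

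Hoxa9 had 10.7, 9.66 and 8.06 CPM in the caput, 0.711, 0.786 and 0.862 in the corpus and 1.90, 1.30 and 0.405 in the cauda in principal cells, against 5.19, 0 and 1.57 in macrophages of the caput. Its caput level in principal cells was above all others without overlap, whereas in stromal cells the corpus was highest. The stromal difference between corpus and caput exceeded the principal one by 5.80 ± 0.54 (adjusted p = 2.83e-08). For Hoxa11 the values were 0.994, 0.467 and 0.151 in the caput, 0.142, 0 and 0 in the corpus and 1.27, 0.349 and 0.527 in the cauda in principal cells (adjusted p = 0.0176), and for Hoxd10 1.22, 1.09 and 1.21 in the caput, 0.142, 0 and 0 in the corpus and 0.634, 0.998 and 0.648 in the cauda (adjusted p = 0.0248). Both were low in principal cells in every segment, at no more than 1.27 CPM. Hoxa9 and Hoxa10 passed under each alternative that was run. Hoxa11 was lost without P42 (adjusted p = 0.775) or P56 pool 2 (0.0575), and Hoxd10 without P42 (0.0743), P56 pool 1 (0.177) or P56 pool 2 (0.111), and with fibroblast-gated cells as the stroma (0.118). The difference for Hoxa11 was 3.07 without P42 and 5.38 without P56 pool 2, against 5.499 with all pools, and for Hoxd10 4.30 and 6.05 without either P56 pool, against 6.09. For Hoxd10 it was 13.3 without P42, when principal cells of the corpus held no UMI of it. Without the P42 cauda library alone, 6 members passed.

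**Figure D4:**
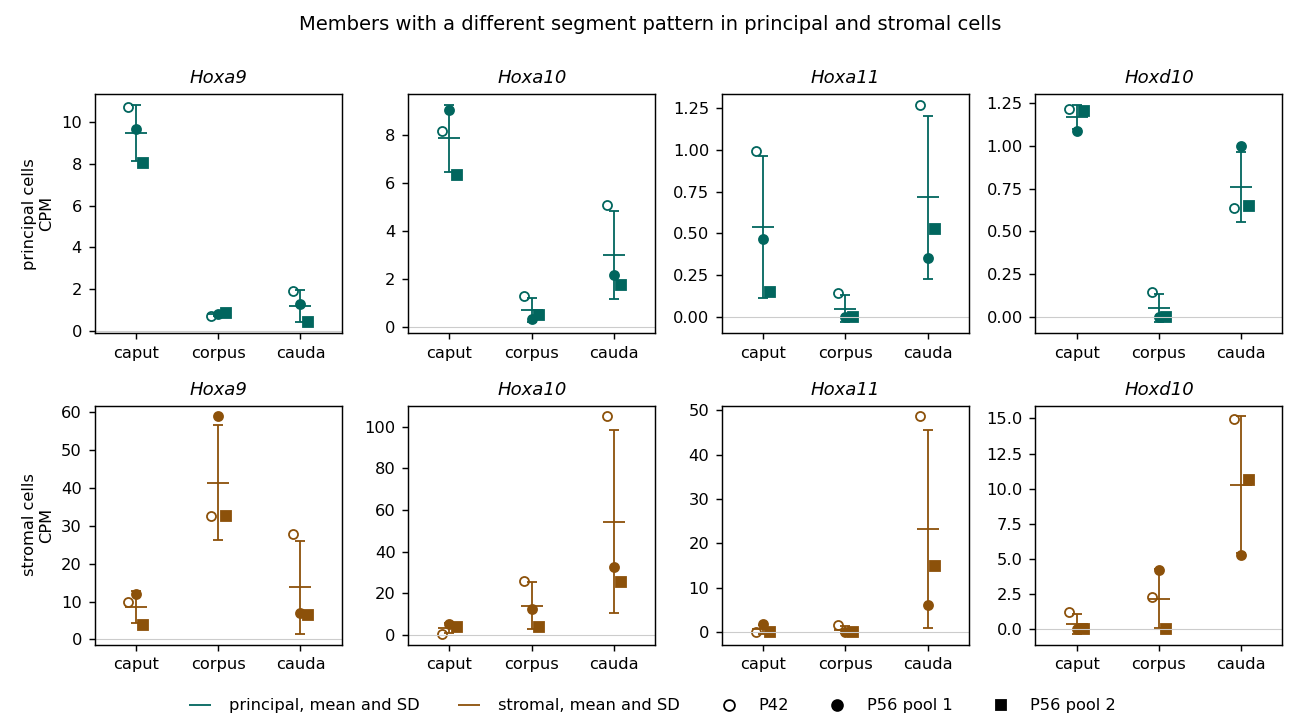
CPM of Hoxa9, Hoxa10, Hoxa11 and Hoxd10 by segment in principal cells (top) and stromal cells (bottom). Points are libraries and bars the mean and SD over 3 libraries, with a separate vertical scale in each panel. Hoxa9 and Hoxa10 have their highest mean in the caput in principal cells and their lowest mean there in stromal cells.

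The start sites of 4 members are shown so that their sequence can be set beside these patterns: Hoxb1, near 0 outside the caput, and Hoxa9, Hoxa10 and Hoxd10, whose patterns differed between the classes. Each is the stretch just upstream of the RefSeq transcript start in GRCm38.p6, written 5′ to 3′ on the gene's strand and free of annotated exons. Capitals mark matches to TGATNNAT, a motif bound by Hox proteins together with Pbx cofactors, searched on both strands. Hoxb1 lies at chr11:96365508-96365751 (plus strand), Hoxa9 at chr6:52227371-52227620 (minus), Hoxa10 at chr6:52234940-52235189 (minus) and Hoxd10 at chr2:74691641-74691890 (plus). The Hoxa9 and Hoxa10 windows lie inside the annotated genes, before a transcript start within them. Another Hoxa10 window, at chr6:52240855-52241104 (minus) and just upstream of the whole gene, held no match and is not printed.
Hoxb1: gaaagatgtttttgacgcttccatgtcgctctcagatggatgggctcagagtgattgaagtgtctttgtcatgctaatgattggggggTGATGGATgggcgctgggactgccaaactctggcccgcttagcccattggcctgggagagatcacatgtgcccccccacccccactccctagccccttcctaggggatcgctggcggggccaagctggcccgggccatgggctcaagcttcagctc
Hoxa9: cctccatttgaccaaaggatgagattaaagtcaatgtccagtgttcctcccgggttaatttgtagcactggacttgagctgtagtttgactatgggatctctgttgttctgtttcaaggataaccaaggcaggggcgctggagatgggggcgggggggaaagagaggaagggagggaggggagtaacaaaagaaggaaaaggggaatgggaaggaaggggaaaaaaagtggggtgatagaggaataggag
Hoxa10: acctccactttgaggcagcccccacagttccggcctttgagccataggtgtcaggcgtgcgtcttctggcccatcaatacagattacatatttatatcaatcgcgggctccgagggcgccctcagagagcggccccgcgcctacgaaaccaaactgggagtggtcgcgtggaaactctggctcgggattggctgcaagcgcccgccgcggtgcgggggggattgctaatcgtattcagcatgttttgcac
Hoxd10: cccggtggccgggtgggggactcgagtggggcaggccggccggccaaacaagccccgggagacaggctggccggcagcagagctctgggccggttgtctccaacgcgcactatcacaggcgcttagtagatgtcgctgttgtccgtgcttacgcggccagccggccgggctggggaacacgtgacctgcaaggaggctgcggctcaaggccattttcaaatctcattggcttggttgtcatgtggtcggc
The Hoxb1 window held 1 match and the other 3 none. The table of RefSeq promoters held 22 windows for 20 members, of which 4 had a match, against 2524 of 32851 windows of all genes (7.7%). A motif of posterior Hox proteins, TTTATNG, was found in 2 of the 22 and in 3223 of all windows (9.8%), counted apart from the first motif where they overlap, and in none of the 4 printed here. A match says only that these letters are in the window.

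Compared within libraries, stromal cells differed from principal cells by cluster. Of 17 members tested, 11 were called (22.6% of all genes). Those higher in stromal cells were 6 (12.4%), all of clusters A and C: Hoxc9 by 4.71 ± 0.25, Hoxc8 by 4.63 ± 0.28, Hoxa7 by 2.86 ± 0.30, Hoxa5 by 2.73 ± 0.39, Hoxa9 by 2.53 ± 0.71 and Hoxa10 by 2.28 ± 0.71 log2 units (adjusted p from 4.66e-10 to 0.0161). These differences are averages over the segments. In the caput, by the levels given above, Hoxa10 was lower in stromal than in principal cells in every library, and Hoxa9 overlapped between the classes. Those higher in principal cells were 5 (10.2%), all of clusters B and D: Hoxb8, Hoxb7, Hoxb6, Hoxd4 and Hoxd8 were lower in stromal cells, at -1.39 ± 0.18, -1.34 ± 0.14, -1.27 ± 0.15, -1.247 ± 0.18 and -1.02 ± 0.15. The members not called were at -0.94 ± 0.23 for Hoxb9, -0.83 ± 0.14 for Hoxb5, -0.72 ± 0.18 for Hoxb4, -0.44 ± 0.16 for Hoxd9, -0.87 ± 0.39 for Hoxd3 and -1.08 ± 0.49 for Hoxb3, the last with an adjusted p of 0.0813. The median of all genes was -0.128 in this comparison, and with TMM factors of 1 the split was 6 higher and 2 lower in stromal cells.

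Without the P42 pool, Hoxb6, Hoxb8, Hoxd4 and Hoxd8 were -0.88, -0.96, -0.81 and -0.77 and were no longer called, and Hoxd8 was -0.87 without the P42 cauda library. Hoxa10 was lost without P56 pool 1, P56 pool 2 or the P42 cauda library (adjusted p = 0.054, 0.0558 and 0.055). No other of the 11 calls depended on a single pool.

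Basal and clear/narrow cells were closer to principal cells, and the edgeR test called no member in either. With TMM factors of 1, 2 members were called in each, and a stricter gate also called some, as given below. In basal cells 0 of 13 were called (16.4% of all genes), with 8 at an unadjusted p under 0.05 and 0 called by DESeq2. Of the 13, 7 had an adjusted p under 0.05 with a difference under 1 log2 unit. The largest differences were Hoxb9, 0.87 ± 0.25 higher (adjusted p = 0.0094), and Hoxb6, at -0.87 ± 0.09 (adjusted p = 2.11e-06). The other members with at least 1000 UMIs were at 0.25 for Hoxa7, 0.31 for Hoxa10, -0.12 for Hoxb4, -0.73 for Hoxb5, -0.79 for Hoxb7, -0.25 for Hoxb8, 0.68 for Hoxc8, 0.38 for Hoxd3, -0.13 for Hoxd4, -0.52 for Hoxd8 and -0.46 for Hoxd9. In clear/narrow cells 0 of 14 were called (17.2%), again with 8 at an unadjusted p under 0.05, 7 at an adjusted p under 0.05 and 0 by DESeq2. There Hoxd3 was 0.99 ± 0.19 higher (adjusted p = 0.000789) and Hoxb9 0.82 ± 0.25 higher (adjusted p = 0.0142), while Hoxb7 was at -0.71 ± 0.10. The other members with at least 1000 UMIs were at 0.31 for Hoxa7, -0.29 for Hoxa9, -0.13 for Hoxa10, -0.21 for Hoxb4, -0.30 for Hoxb5, -0.73 for Hoxb6, -0.64 for Hoxb8, -0.58 for Hoxd4, -0.24 for Hoxd8 and -0.37 for Hoxd9.

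Levels of Hoxb9 in the 3 epithelial classes are given by segment, and a difference in segment pattern among these classes was not tested. Basal cells had 106, 88.7 and 92.9 CPM in the caput, 75.4, 58.3 and 63.4 in the corpus and 124, 72.4 and 81.7 in the cauda, and clear/narrow cells had 131, 92.4 and 94.2 in the caput, 84.6, 56.9 and 40.4 in the corpus and 106, 59.1 and 59.8 in the cauda. In the corpus both were well above principal cells, at 16.5, 11.5 and 7.71, and in the caput the 3 classes lay closer together. Macrophage levels were a median 0.344 and 0.361 times those of basal and clear/narrow cells, and both classes were above macrophages in 9 of 9 libraries.

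**Figure D5:**
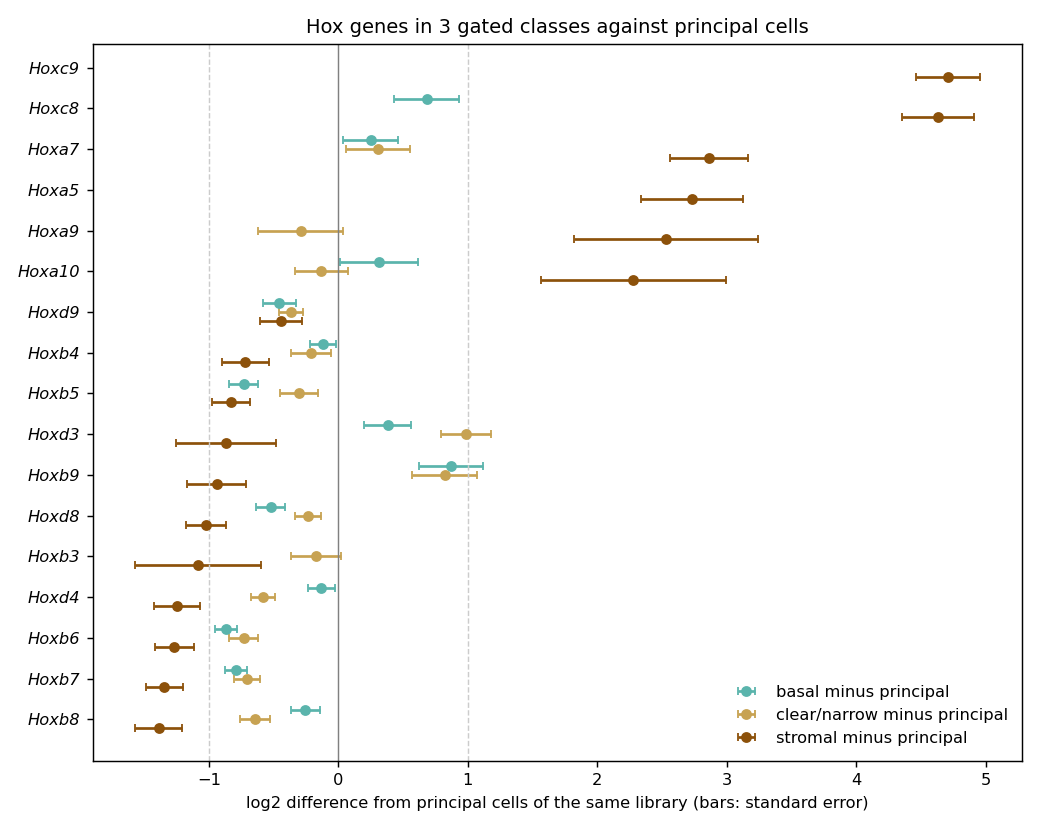
Log2 difference of each member tested between basal, clear/narrow or stromal cells and the principal cells of the same library, with bars for the standard error and dashed lines at 1 log2 unit either way. Stromal differences run from -1.39 for Hoxb8 to 4.71 for Hoxc9, and basal and clear/narrow differences stay within 1 log2 unit.

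Summed over all cells, 12 of 28 members tested were called between segments (24.7% of all genes). Of these, 9 were highest in the caput (11.3%): Hoxa5, Hoxa7, Hoxb1, Hoxb6, Hoxb7, Hoxb8, Hoxc8, Hoxd4 and Hoxd9. Hoxa11, Hoxc10 and Hoxd10 were highest in the cauda (6.14%). In such sums, fewer cells of a type and less RNA per cell cannot be told apart. Hoxb1 had 18.7, 22.3 and 21.2 CPM in the caput, 0.473, 0.237 and 0.228 in the corpus and 0.0530, 0.280 and 0.172 in the cauda and was highest in the caput without overlap (adjusted p = 0.000159). Hoxa11 had 0.450, 0.350 and 0.115 in the caput, 0.368, 0 and 0.0380 in the corpus and 28.7, 0.810 and 0.711 in the cauda, so that its call (adjusted p = 0.0111) came with 1 library far above the rest, the P42 cauda library with its 2365 stromal cells. With P56 pool 1 or 2 left out, 4 members were called each, while 9 and 8 of the 12 calls were lost. Leaving out the P42 cauda library gave 18 calls. Of the 12 calls, only those of Hoxb1 and Hoxa7 remained whichever pool was left out. The other 10 lost it without P56 pool 1 or 2, with adjusted p from 0.068 (Hoxa5) to 0.281 (Hoxb7 and Hoxb8). The differences of these 10 between segments were then 83.0% to 131% of those with all pools on the log2 scale. Without P42, Hoxb6 was at 0.63 log2 units against 1.12. Members with at least 1000 UMIs that were not called had 7.16, 10.1 and 6.13 in the caput, 5.41, 1.07 and 1.10 in the corpus and 67.0, 4.89 and 2.77 in the cauda for Hoxa10, and 82.0, 58.7 and 70.3 in the caput, 30.7, 19.6 and 14.9 in the corpus and 20.4, 45.2 and 50.7 in the cauda for Hoxb9. Adjusted p was 0.0856 and 0.0738 for these, 0.0143 for Hoxd8, whose difference was under 1 log2 unit, and 0.099 to 0.795 for Hoxa9, Hoxb4, Hoxb5, Hoxc9 and Hoxd3.

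Between ages, more members were called in the cauda than in the caput or the corpus, in sums over all cells and in principal and stromal cells. The same held for all genes. Over all cells, 32.3% of them were called in the cauda, 3.43% in the caput and 10.8% in the corpus. In that order the shares were 6.04%, 0.732% and 1.98% in principal and 20.6%, 1.94% and 1.99% in stromal cells. Summed over all cells of the cauda, 26 of 32 members were called (32.3% of all genes), 9 higher at P56 (12.9%) and 17 lower (19.4%). With the TMM factors, which scale the libraries to each other, set to 1, the split was 3 higher and 18 lower. Those higher were Hoxb1, Hoxb3, Hoxb4, Hoxb5, Hoxb6, Hoxb7, Hoxb8, Hoxb9 and Hoxd4. Those lower were Hoxa2, Hoxa4, Hoxa5, Hoxa6, Hoxa7, Hoxa9, Hoxa10, Hoxa11, Hoxc4, Hoxc5, Hoxc6, Hoxc8, Hoxc9, Hoxc10, Hoxc11, Hoxd10 and Hoxd11. Hoxa10 had 67.0, 4.89 and 2.77 CPM (-3.37 ± 0.40, adjusted p = 0.000341), and Hoxb7 had 56.6, 162 and 197 (2.42 ± 0.21, adjusted p = 9.02e-05). Stromal cells were 52.1% of the P42 cauda library and 3.92% and 1.40% of the P56 ones. The part of this makeup in the difference was not tested. In comparisons between ages, a P56 pool was left out by dropping only its library of the segment compared. Without P56 pool 1 or 2, 7 of the 26 lost their call, Hoxa2, Hoxa4, Hoxa6, Hoxa7, Hoxb1, Hoxb3 and Hoxc11 (adjusted p from 0.0563 to 0.179). The other members with at least 1000 UMIs were at 0.30 for Hoxd3, 0.47 for Hoxd8 and -0.75 for Hoxd9.

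Within gated cells of the cauda the counts were smaller. In principal cells 2 of 25 members were called, or 8.0%, near the 6.04% of all genes. Hoxb5, with 27.3, 36.5 and 40.7, was 1.17 ± 0.18 higher at P56 (adjusted p = 0.00576), but 0.50 and not called with TMM factors of 1, when 0 members were higher and 3 lower. Hoxd9, with 29.2, 7.48 and 9.93, was at -1.07 ± 0.24 (adjusted p = 0.0237), and at -0.97 without P56 pool 1. Hoxb1 had no UMI at P42 and 0.299 and 0.162 at P56. The other members with at least 1000 UMIs were at 0.72 for Hoxa7, -0.54 for Hoxa9, -0.72 for Hoxa10, 0.06 for Hoxb4, 0.30 for Hoxb6, 0.91 for Hoxb7, -0.35 for Hoxb8, 0.42 for Hoxb9, -0.24 for Hoxc8, 0.57 for Hoxc9, -0.86 for Hoxd3, 0.39 for Hoxd4 and -0.82 for Hoxd8. In stromal cells 12 of 19 were called (20.6%), 6 higher at P56 (9.46%) and 6 lower (11.1%), or 2 and 9 with TMM factors of 1. The higher ones were Hoxb4, Hoxb5, Hoxb6, Hoxb7, Hoxb9 and Hoxd4, all near the macrophage level in stromal cells, and the lower ones Hoxa9, Hoxa10, Hoxa11, Hoxc6, Hoxc9 and Hoxd9.

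Stromal Hoxa10 in the cauda, given above, was at -1.35 ± 0.35 at P56 (adjusted p = 0.00506), and stromal Hoxa11 at -1.96 ± 0.54 (adjusted p = 0.00866). Fibroblast-gated cells made up 2281 of the 2365 stromal cells at P42 and 41 to 124 of 68 to 190 at P56, and the part of that difference was not tested. DESeq2 called 2 of the 19, Hoxb7 and Hoxb9. The other members with at least 1000 UMIs were at -0.30 for Hoxa7, 0.84 for Hoxb8, -1.24 for Hoxc8 and 0.26 for Hoxd8. Without P56 pool 1, 7 were called, with Hoxa9, Hoxa11, Hoxb4, Hoxd4 and Hoxd9 lost (adjusted p from 0.0702 to 0.243), and without P56 pool 2, 4 were, with Hoxa9, Hoxa10, Hoxb4, Hoxb5, Hoxc6, Hoxc9, Hoxd4 and Hoxd9 lost (0.0533 to 0.279). Hoxb6, Hoxb7 and Hoxb9 were called in both. With 1 library per age left in the cauda, the spread came from the P56 libraries of the other segments. The log2 differences of the calls lost were 65.3% to 134% of those with both pools, the lowest being those of Hoxa11 and Hoxc6, and for Hoxa9 they were -1.70 and -1.49 against -1.57.

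In the corpus, 9 of 32 members were called in sums over all cells (10.8% of all genes), all lower at P56 (7.91%): Hoxa5, Hoxa6, Hoxa7, Hoxc4, Hoxc6, Hoxc8, Hoxc9, Hoxc10 and Hoxd10. Hoxc9 had 24.1, 4.22 and 3.65 CPM (-1.96 ± 0.46, adjusted p = 0.0253), beside stromal shares of 13.7%, 3.35% and 1.23% of the cells. Each of the 9 calls was lost when the corpus library of one or the other P56 pool was left out. Such a fit has 1 library per age in the corpus and takes the spread from the P56 libraries of the other segments, the lone libraries being assumed to vary like those. The log2 differences of the calls lost were 68.6% to 162% of those with both pools, and for Hoxc9 -2.02 and -1.91 against -1.96. In stromal cells of the corpus edgeR called 0 of 19 (1.99% of all genes), with 6 at an unadjusted p under 0.05, and in principal cells 0 of 25 (1.98%), with 2 under 0.05. DESeq2 called 0 in both. Over all cells of the corpus, the other members with at least 1000 UMIs were at -1.39 for Hoxa9, -1.66 for Hoxa10, -0.37 for Hoxb1, 0.54 for Hoxb4, 0.46 for Hoxb5, 0.76 for Hoxb6, 0.77 for Hoxb7, -0.08 for Hoxb8, -0.18 for Hoxb9, -0.37 for Hoxd3, 0.27 for Hoxd4, 0.51 for Hoxd8 and -0.37 for Hoxd9. In principal cells the members with at least 1000 UMIs were at -0.14 for Hoxa7, 0.71 for Hoxa9, -1.12 for Hoxa10, -0.13 for Hoxb1, 0.22 for Hoxb4, -0.17 for Hoxb5, 0.19 for Hoxb6, 0.30 for Hoxb7, -0.67 for Hoxb8, -0.29 for Hoxb9, -0.54 for Hoxc8, -0.26 for Hoxc9, -0.58 for Hoxd3, -0.13 for Hoxd4, 0.09 for Hoxd8 and -0.45 for Hoxd9. In stromal cells those tested were at -1.247 for Hoxa7, 0.75 for Hoxa9, -1.30 for Hoxa10, 0.50 for Hoxb4, 0.39 for Hoxb5, 1.14 for Hoxb6, 0.95 for Hoxb7, 0.42 for Hoxb8, 0.83 for Hoxb9, -0.66 for Hoxc8, -0.76 for Hoxc9, 0.44 for Hoxd4, 0.14 for Hoxd8 and -0.34 for Hoxd9.

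Over all cells of the caput, edgeR called 0 of 32 members (3.43% of all genes), although 13 had an unadjusted p under 0.05, and in principal cells 0 of 25 (0.732%), with 3 under 0.05. DESeq2 called 0 in both. In stromal cells 1 of 19 was called (1.94%), Hoxb7, with 165, 254 and 370 (1.15 ± 0.30, adjusted p = 0.0382). It lost the call without P56 pool 2 (adjusted p = 0.264) beside macrophage levels of 199, 263 and 426. In sums over all cells, the members with at least 1000 UMIs were at -0.75 for Hoxa7, 0.13 for Hoxa9, 0.58 for Hoxa10, 0.60 for Hoxb1, 0.38 for Hoxb4, 0.42 for Hoxb5, 0.19 for Hoxb6, 0.84 for Hoxb7, 0.20 for Hoxb8, 0.02 for Hoxb9, -1.36 for Hoxc8, -1.59 for Hoxc9, -0.40 for Hoxd3, 0.56 for Hoxd4, 0.87 for Hoxd8 and -0.08 for Hoxd9. In principal cells of the caput, they were at -0.01 for Hoxa7, 0.08 for Hoxa9, 0.27 for Hoxa10, 0.35 for Hoxb1, 0.34 for Hoxb4, 0.33 for Hoxb5, -0.03 for Hoxb6, 0.64 for Hoxb7, 0.08 for Hoxb8, 0.06 for Hoxb9, 0.46 for Hoxc8, 0.43 for Hoxc9, -0.47 for Hoxd3, 0.32 for Hoxd4, 0.79 for Hoxd8 and -0.25 for Hoxd9. In stromal cells, those not called were at -0.28 for Hoxa7, 0.21 for Hoxa9, 0.25 for Hoxb4, 0.56 for Hoxb5, 0.40 for Hoxb6, 0.40 for Hoxb8, 1.18 for Hoxb9, -0.73 for Hoxc8, -0.43 for Hoxc9, 1.13 for Hoxd4, 0.87 for Hoxd8 and 0.56 for Hoxd9. Hoxa10 had 1 UMI there at P42, and no fold is given for it.

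The remaining members were rare. In all, 10 had fewer than 100 UMIs over all cells kept, among which Hoxa2 had 93, Hoxa6 78, Hoxa4 61, Hoxd1 57, Hoxa3 40, Hoxc11 24, Hoxa13 7, Hoxc12 3 and Hoxc13 3. Hoxc11 was counted in the cauda only, with 24 UMIs, of which 21 were in stromal cells and 20 in the P42 library. Hoxb2 and Hoxb3, with 377 and 638 UMIs, lay at 0.900 to 2.31 and 1.70 to 2.85 CPM in all cells of every library, and neither was called between segments in any class in which it was tested. They overlap the antisense gene Hoxb3os, as Hoxb5 does Hoxb5os and Hoxa7 does Hoxaas3, and Hoxc10 shares exon sequence with Hoxc5.

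Genes that act with or on Hox genes were described from lists, 36 of whose 39 genes were in the table. Of TALE cofactors, homeodomain proteins that bind DNA beside Hox proteins, 1 of 9 tested was called in all cells (24.7% of all genes) and 1 of 8 in principal cells (39.1%), in both cases Pbx4, with 11.4, 6.404 and 7.44 CPM in principal cells of the corpus against 0.467 to 1.22 in the caput and 0.634 to 3.19 in the cauda (adjusted p = 0.000119 in principal cells). In stromal cells 1 of 4 was called (13.1% of all genes), Meis2, with 182, 44.9 and 70.2 in the cauda against 18.8 to 63.0 in the caput, so that the segments overlapped (adjusted p = 0.0103). Of upstream and chromatin regulators, 0 of 4 were called in stromal cells. Of non-coding genes within the clusters, 0 of 6 were called in all and in principal cells and 0 of 2 in stromal cells.

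Of other homeobox or paired genes of the duct, 3 of 4 were called in all cells and in principal cells, where 24.7% and 39.1% of all genes were, and 0 of 3 in stromal cells. Pax2, which the Wolffian duct needs to form, had 7.42 to 18.1 CPM in principal cells of the caput and 23.3 to 78.7 in the other segments (adjusted p = 6.08e-06). Pax8, its relative, had 47.0, 21.9 and 18.0 in the cauda against 52.1 to 87.4 in the corpus (adjusted p = 0.000408). Its caput libraries were at 66.6, 35.7 and 41.2, so that the cauda lay below the corpus and overlapped the caput. Lhx1, another early duct gene, had 4.20, 0.986 and 0.678 in the caput and at most 0.405 elsewhere (adjusted p = 0.012). Pax2 was also called in basal cells. In clear/narrow cells 1 of 26 partner genes was called (15.6% of all genes), Hotairm1.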

How the data were processed

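The authors deposited 1 table of UMI counts, genes by cell barcodes, for all 9 libraries. Per the study's methods and the submitters' processing notes, reads were trimmed with fastp, barcodes were extracted with UMI-tools, reads were aligned with STAR 2.7.3a to GRCm38.p6, assigned to exons with featureCounts and counted as UMIs. The strand setting is not given in the sources used here. The table held whole numbers only and 0 columns were left unused. Column names gave segment and replicate, and the columns without a P56 replicate number were taken as P42, which rests on those names and the study's cell numbers.

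Barcodes with 300 to 4000 genes, at most 20000 UMIs and at most 50% mitochondrial UMIs were kept (42087 of 44869), and 725 erythroid cells were removed. Cells were gated by the summed UMIs of fixed marker lists per 10000 UMIs (principal at least 200, basal 10, clear/narrow 25, fibroblast 150, myoid 12, endothelial 8, macrophage/monocyte 40) with at least 3 distinct markers for all but the principal gate. Actg2 was taken out of the myoid list. Doublets were not called. Cells in more than 1 gate were left out of the classes, with fibroblast and myoid taken as 1 gate and the principal gate not counted. A cell of another class could thus also pass the principal limit. The median of principal markers was 386 UMIs per 10000 in basal and 297 in clear/narrow cells. Principal cells were at that limit, in no other gate, and not near the limit of another with at least 2 distinct markers.

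UMIs were summed per library and class (at least 10 cells) and tested with edgeR 4.0.16 in R 4.3.3 (filterByExpr, TMM factors, quasi-likelihood test), with Benjamini-Hochberg adjustment over all genes tested. Segments were compared with the pool as a block. The labels' pools pair the samples because the segments of a pool came from the same mice. Libraries of a pool also deviated together from their segment means (correlations of 0.146 to 0.737 over 18454 genes). These deviations hold the difference between ages too, so the correlations cannot show that the segments share mice. Classes were compared with the library as a block, and ages within a segment without one. DESeq2 1.42.0, other scalings, filters and gates, and leaving out each pool were alternatives. Between ages, only the pool's library of the segment compared was left out. The steps were tested on simulated data. Bounds against a segment without UMIs used a floor of 3 UMIs over its 3 libraries, and cover counting error only.

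The members, gene lists and tests were chosen with earlier results of these data known. Members with at least 1000 UMIs were named with their values in most comparisons and by name only in some. The others were given by range or total, and called members in each comparison were named. Promoter windows came from RefSeq, for 20 of the 36 members. Some genes of these lists are not reported here.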

Additional observations from a re-analysis of the deposited data

Results flagged for a closer look

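The segment pattern differed between stromal and principal cells, by the interaction test with edgeR, for Hoxa10 (adjusted p = 1.97e-08), Hoxa9 (2.83e-08), Hoxa11 (0.0176) and Hoxd10 (0.0248). Hoxa11 lost its call without P42 or P56 pool 2, at 3.07 and 5.38 log2 units against 5.499 with all pools. Hoxd10 lost it without any 1 of the pools, at 4.30 and 6.05 without the P56 ones against 6.09. Without P42 it was at 13.3, when principal cells of the corpus held no UMI of it. In principal cells Hoxa10 was above macrophages in 3 of 9 libraries and Hoxd10 in 2 of the 7 with a UMI, and neither was read as expression there. In the caput the stromal level of Hoxa10 was also below that of macrophages, in all 3 libraries.

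Endothelial-gated cells entered no comparison. Over the 7 libraries with enough of them (454 cells), Hoxa7 had 66.95 CPM (187 UMIs), against 3.258 in macrophage-gated and 3.904 in principal cells of the same libraries. Hoxa5 had 16.11 (45 UMIs), against 2.506 and 2.066. Both were above both other classes in 6 of the 7 libraries. The P42 caput library held 126 of the 187 UMIs of Hoxa7 and 37 of the 45 of Hoxa5. The other libraries held 0 to 3 UMIs of Hoxa5 each. In each caput library the stromal level of both genes, given above, was higher than the endothelial one, though not in each library of the other segments. No test was run on these values.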

How the results depend on the processing

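Of 162 counts of called members recomputed, 124 stayed within 1.5 times of the reported one. None of the called members changed direction under any alternative. The 3418 member values recomputed also held those of members not called, for which a change of direction was not counted. The cause of the shifts was not tested. Counts under an alternative, here and in the sections above, are given without the share of all genes called under it. A rise or fall in them cannot be read as particular to Hox genes. Without the replicate block for pools, 7 members were called between segments in all cells, 15 in principal, 6 in basal, 10 in clear/narrow and 5 in stromal cells. Without the block for libraries, 0 were called between basal and principal, 1 between clear/narrow and principal and 12 between stromal and principal cells. With a stricter gate, 3 were called in basal and 6 in stromal cells between segments, and 3 and 2 when basal and clear/narrow cells were compared with principal cells. With fibroblast-gated cells only, chosen after the data were seen, 5 were called between segments. Without a low-count filter, the counts were 25 for stromal, 3 for basal and 1 for clear/narrow against principal cells, and between ages 3 in all cells of the caput, 0 in stromal cells of the caput and 1 in those of the corpus. With all TMM factors set to 1, which moved the median of all genes by up to -0.821 log2 units (cauda, all cells, ages), 4 were called between ages in all cells of the caput, 14 in those of the corpus, 1 in principal cells of the corpus, 0 in stromal cells of the caput and 1 in those of the corpus, and 2 each for basal and clear/narrow against principal cells. DESeq2 called 0 between ages in stromal cells of the caput and 2 in those of the cauda. Leaving out 1 pool or the P42 cauda library gave 4 to 18 calls between segments in all cells, 2 to 9 in basal and 7 to 11 in clear/narrow cells, 0 to 1 for clear/narrow against principal cells and 2 to 6 for the interaction. Between ages it gave 2 to 3 in all cells of the corpus, 1 to 2 in principal cells of the cauda, 0 to 2 in stromal cells of the caput and 4 to 7 in those of the cauda.

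With 1 pool at P42, age and pool cannot be told apart, and leaving that pool out removes the comparison. Stromal sums of the caput and of P56 rested on 42 to 291 and 42 to 190 cells, so that the levels of low members there rested on few UMIs.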
